A study of Mus musculus with 5 samples.

Results

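The protein-coding genes that encode translation initiation factors (eIF) and elongation factors (eEF) were compared between control mouse hearts and hearts in which Immt had been deleted by an inducible Cre. Members were all protein-coding genes of the deposited table whose symbol starts with Eif or Eef followed by a number, leaving out Eif4ebp1, Eif2ak2 and Eif2s3y, and 64 of the 15116 genes with values met this rule. The rule reads names and biotypes and no measured value, though it was set with earlier results of these data known. Immt encodes Mic60, a core subunit of the complex that organizes mitochondrial cristae. RNA of whole hearts was read as 3′ tags with molecular identifiers, so that 1 transcript is counted near its end, where the deleted Immt exon does not lie. The control group held 3 libraries from Immt+/+-Myh6-Cre mice, in which the cardiomyocyte promoter of Myh6 drives Cre with no inducer. The knockout group held 2 libraries from Immtfl/fl-Myh6-MCM mice, in which the same promoter drives a Cre that tamoxifen switches on. Both groups carry a tamoxifen label, and injections were given 3 times from 6 weeks of age. Knockout hearts date from 10 weeks after that, and the controls were matched to them in age, though their labels give no time after tamoxifen. The groups therefore differed in the transgene as well as in the Immt alleles, and these cannot be told apart. The study used only males of the Myh6-Cre line and both sexes of the inducible line. Sample titles are numbered separately, and the mouse is named as the experimental unit in general, but nothing says that each library is 1 animal, so p-values measure the spread between these libraries.

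Protein synthesis starts when eIF2, bound to GTP and the initiator tRNA, joins the small ribosomal subunit with eIF1, eIF1A, eIF3 and eIF5. The eIF4 factors bring the mRNA by its cap, eIF5B joins the large subunit, and eEF1 and eEF2 then deliver aminoacyl-tRNA and move the ribosome along. Each round leaves eIF2 bound to GDP, which eIF2B exchanges for GTP. Kinases that phosphorylate the alpha subunit of eIF2 turn it into an inhibitor of eIF2B, which lowers general initiation while mRNAs with suitable upstream reading frames, such as Atf4, are translated more. This branch is called the integrated stress response, and mitochondrial damage in the heart is among its known triggers.

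Transcripts of most initiation and elongation factors were higher in the knockout heart, among them all 3 genes of eIF2, 13 of 14 of eIF3 and all 6 with an eEF1 subunit name, whereas no difference was detectable in the 3 eIF2 alpha kinases examined, Eif2ak1, Eif2ak3 and Eif2ak4. Of the 64 members, 39 rose, 1 fell (Eif4a3) and 24 did not pass the test. Calls required an adjusted p below 0.05 in limma's moderated test of log2(CPM + 0.5), where CPM is a read count that the authors scaled by library size. Over all genes, 13.3% were called higher and 12.9% lower. Members have higher levels than most genes, and among the 3974 genes that averaged 20 CPM or more, 25.3% were called higher and 15.4% lower, against 32 and 1 of the 44 members at that level. Below 20 CPM, 7 of 20 members were called higher. The median log2 difference, knockout minus control, was 0.35 over the members and −0.02 over all genes. Together the 64 members made up 4821 CPM (control) and 6881 CPM (knockout) in the authors' means.

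For each gene, the authors' mean and standard deviation (SD) fix the values of both knockout libraries, while for the 3 control libraries the SD sets the range they can span. In 47 members both knockout libraries lay above the control, and in 2, Eif4a3 and Eif4e3, both lay below. The control was the range its SD allows, or its single libraries where these could be worked back (8487 genes, 18 of them members). These criteria are mixed differently in members and in all genes, of which 25.4% lay above and 25.9% below. Among the 3974 genes that averaged 20 CPM or more, 1523 lay above and 988 below, against 37 and 2 of the 44 members at that level. When the knockout library farther from the control was left out of each gene, 10 members stayed called, which were Eif1, Eif2s2, Eif3c, Eif4a1, Eif5, Eif5a, Eef1a1, Eef1b2, Eef1d and Eef1e1. Over all genes, 4.72% were called higher in that test, which takes the nearer library on purpose. Scaling to library totals raised the median of all genes by 0.11 on the log2 scale, moved the share of calls that were higher from 50.9% to 68.4%, and gave 45 members higher and 0 lower. It turned the sign of 8 members near 0 that were not called, namely Eef1akmt2, Eif2ak4, Eif2b2, Eif2b5, Eif2d, Eif4a2, Eif4ebp2 and Eif4ebp3.

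**Figure D1:**
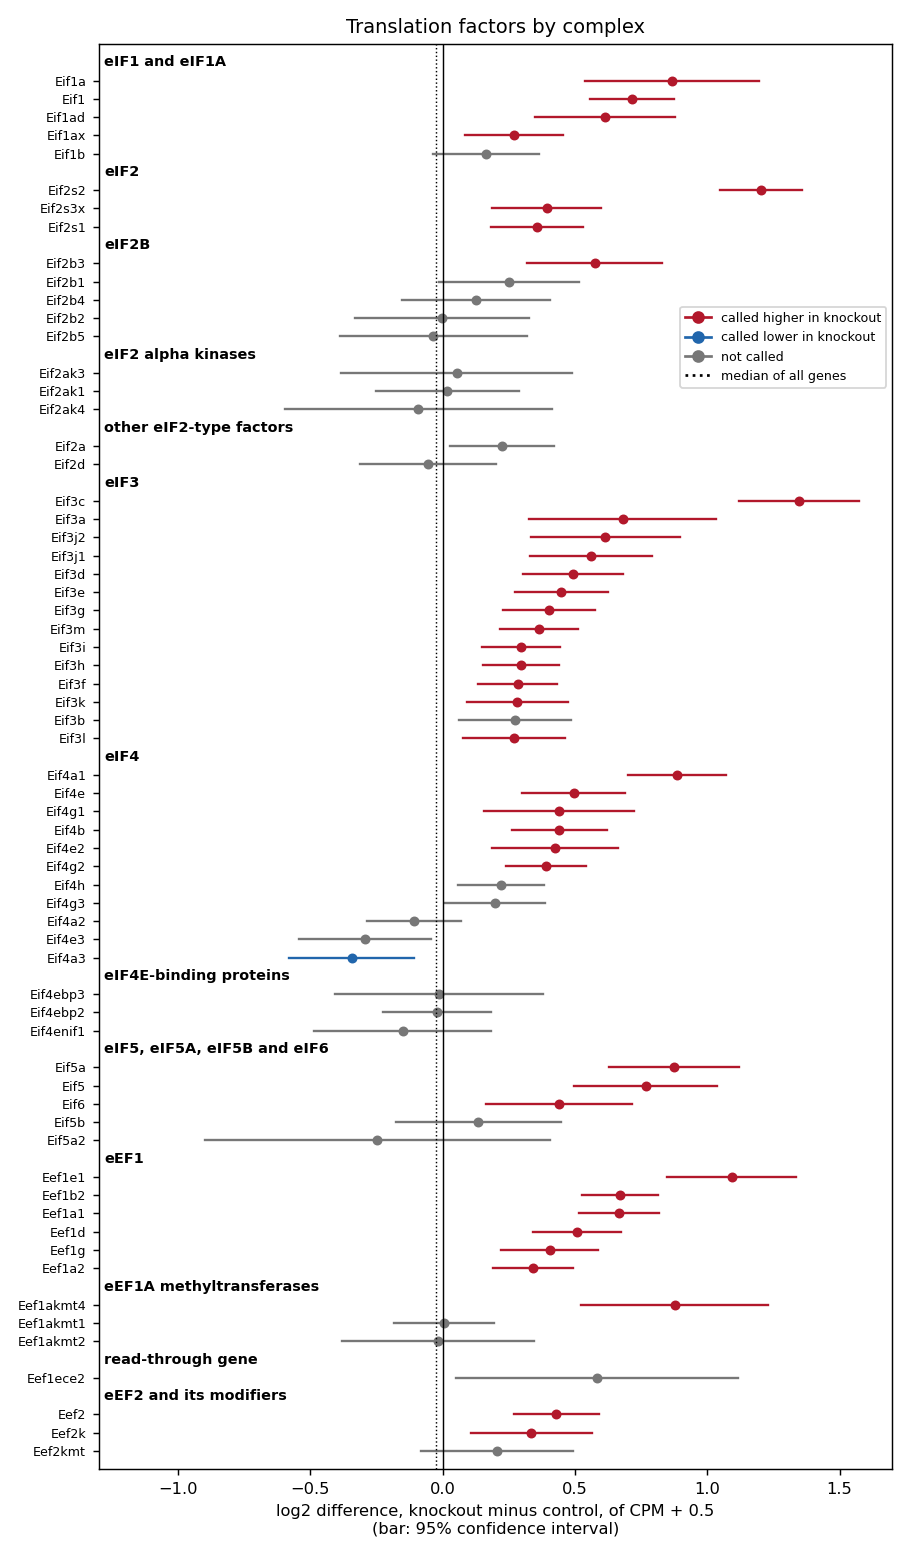
Log2 difference (knockout minus control, of CPM + 0.5) of the 64 members on the horizontal axis, ordered by complex, with points for the estimate and bars for its 95% confidence interval from 3 control and 2 knockout libraries. The eIF2, eIF3 and eEF1 genes lie to the right of 0 in every case, and the 3 kinase genes straddle it.

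The whole-heart context was as follows. Immt itself read 254 ± 7.76 CPM (SD, n = 3) in the control and 17.9 ± 2.72 CPM (SD, n = 2) in the knockout, 14.2-fold lower at 3′ tags that do not read the deleted exon. The markers of the labelled tissue were present. Of 8 cardiomyocyte markers, 4 were lower (Ryr2, Pln, Tnnt2 and Tnni3) and 0 higher, and their summed level went from 28290 to 25769 CPM. Fibroblast and macrophage lists each had 1 of 5 markers lower (Dcn and C1qa), endothelial and smooth muscle lists had 0 of 5 called, and no marker was at 0 in either group. The 3 blood genes came to 3374 CPM (control) and 1938 CPM (knockout) in sum, with 0 of 3 called. Genes of the mitochondrial genome took 36.7% of the control and 32.2% of the knockout column. The part of these shifts in the results was not tested. In whole hearts, fewer cells of a type and less RNA per cell cannot be told apart.

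Promoter sequence was compared for the members that RefSeq windows cover, which run from 250 bases before to 50 after a start and matched 50 of the 64 (build GRCm38.p6). The palindrome CACGTG, an E-box that MYC and other basic helix-loop-helix factors bind, was present in windows of 13 of the 50 genes (26.0%), against 11.6% of 9769 protein-coding genes with values and 8.09% of all 27025 genes with a window. It was in 10 of the 29 members called higher (34.5%) and 3 of the 21 others (14.3%). The difference between these shares was not tested. No such split was made for all genes or for genes of like level, so it has no background. The motif TGATGNAA of ATF4 with C/EBP, read on both strands, was in 2 of 50 genes, Eef2k and Eif2s3x (against 2.76% of those genes). The motif was picked as an E-box of MYC, whose induction the study reports. Myc mRNA, added after its values were seen, read 3.39 ± 1.23 CPM in the control and 28.6 and 30.3 CPM in the knockout libraries (log2 difference 2.95 ± 0.23, adjusted p = 6.55e-05, limma). Its part in the results was not tested. A match describes the letters only and is no measured binding site.

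Stretches before the start are shown for 5 of the 10 members called higher that carry CACGTG, with the motif in capitals. These 5 are genes of cap recruitment or elongation. The other carriers called higher, Eif3a, Eif3f, Eif3k, Eef2k and Eef1akmt4, are not printed. All stretches shown are written 5′ to 3′ on the strand of the gene.
Eif4a1 (chr11:69672587-69672632, minus strand): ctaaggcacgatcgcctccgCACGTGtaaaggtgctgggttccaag
Eif4e (chr3:138527184-138527229, plus strand): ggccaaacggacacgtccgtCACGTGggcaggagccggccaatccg
Eif4g1 (chr16:20672653-20672698, plus strand): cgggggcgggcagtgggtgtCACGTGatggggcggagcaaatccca
Eif5a (chr11:69921435-69921480, minus strand): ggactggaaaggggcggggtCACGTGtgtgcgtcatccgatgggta
Eef2 (chr10:81176568-81176613, plus strand): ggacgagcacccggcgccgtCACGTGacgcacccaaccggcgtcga
For comparison, Eif4h, which was not called (log2 difference 0.22), also carries the motif. So do Eif1b (0.16) and Eif5a2 (−0.25), which were not called either and are not printed. The 1 stretch of Eif2s3x with the ATF4 motif has it in capitals on the opposite strand.
Eif4h (chr5:134639480-134639525, minus strand): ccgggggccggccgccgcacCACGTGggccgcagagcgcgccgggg
Eif2s3x (chrX:94212720-94212767, minus strand): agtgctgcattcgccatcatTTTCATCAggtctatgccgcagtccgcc
Eif4e holds a second CACGTG farther upstream, 228 bases before its start, where the printed one lies 64 bases before it. Eif4g1 holds another 15 bases after its start, and Eif5a another in a separate window, 178 bases before a start. The printed Eif5a site lies 185 or 74 bases before a start, depending on the window.

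The eIF2 heterotrimer, which carries the initiator tRNA, was higher in all 3 subunits. Eif2s2, the beta subunit, read 62.5 ± 1.15 CPM in the control, and the knockout libraries read 140.4 and 149 CPM. This was 2.315 times the control level, a log2 difference of 1.20 ± 0.07 (SE), with an adjusted p of 1.36e-05 in limma's test. Eif2s1, the alpha subunit that the kinases phosphorylate, read 34.4 ± 0.62 CPM in the control and 43.9 and 44.6 CPM in the knockout libraries (log2 difference 0.36 ± 0.08, adjusted p = 0.00936). Eif2s3x, the X-linked gamma subunit, read 31.5 ± 2.30 CPM against 40.7 and 42.2 CPM (log2 difference 0.39 ± 0.09, adjusted p = 0.0127). Neither knockout library overlapped the control in any of the 3, and 25.4% of all genes likewise had both knockout libraries above the control. The 95% confidence interval of the log2 difference of beta, 1.05 to 1.36, lay above those of alpha (0.18 to 0.53) and gamma (0.19 to 0.60). The difference between subunits was not itself tested. With the nearer knockout library alone, Eif2s1 and Eif2s3x were not called.

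Gamma also has a copy on the Y chromosome, Eif2s3y, which read 23.6 ± 0.67 CPM (control) and 20.4 ± 1.98 CPM (knockout) and was not called (adjusted p = 0.160, limma), although both knockout libraries, at 19.0 and 21.8 CPM, lay below each control library. Reads of the X and Y copies can be shared. Of 7 genes that differ with sex, 6 had values and 0 were called. The Y-linked Ddx3y read 31.2 ± 1.99 CPM in the control and 33.0 and 36.5 CPM in the knockout libraries. Both knockout libraries thus held RNA of Y-linked genes, as the control did. Uty, on the Y chromosome, read 11.9 and 9.76 CPM and was also apart in the lower direction without a call (adjusted p = 0.0982, limma).

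eIF2B, the exchange factor that recharges eIF2, had 1 of 5 subunits called higher and 0 lower, a share near that of all genes, and it was not tested against the other complexes. For 4 of the 5, whole reads of single libraries could be worked back, and the control libraries are named here in the order of their size. Eif2b3, the gamma subunit, read 13.9, 12.8 and 11.9 CPM in the control libraries and 20.4 and 18.3 CPM in the knockout libraries (log2 difference 0.57 ± 0.11, adjusted p = 0.00584, limma). Both knockout libraries exceeded each control library. Leaving out the first or the second knockout library ended this call.

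Eif2b1, the alpha subunit, read 14.7, 15.0 and 13.7 CPM against 15.6 and 19.0 CPM, the knockout again above each control, but its log2 difference of 0.25 did not pass (adjusted p = 0.152, limma). Eif2b2, the beta subunit, read 12.9, 11.2 and 15.7 CPM against 13.6 and 12.9 CPM. Eif2b4, the delta subunit, read 15.5, 17.9 and 19.97 CPM against 20.3 and 18.6 CPM. The knockout values of both fell inside or beside the control range, and their log2 differences were −0.003 and 0.13 (adjusted p = 0.991 and 0.504, limma). Eif2b5, the catalytic epsilon subunit, read 12.3 ± 2.26 CPM in the control and 11.4 and 12.7 CPM in the knockout libraries (log2 difference −0.04, 95% confidence interval −0.39 to 0.32, adjusted p = 0.896, limma). These 5 libraries do not exclude a change within that interval.

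The eIF2 alpha kinases are the sensors of the integrated stress response, and 0 of the 3 examined were called, Eif2ak2 (PKR) being left out by the rule. Eif2ak1, which encodes the heme-regulated kinase HRI that also relays mitochondrial stress, read 9.61, 10.7 and 9.90 CPM in the control libraries and 9.60 and 10.8 CPM in the knockout libraries. Its groups overlapped, with a log2 difference of 0.02 (95% confidence interval −0.25 to 0.29, adjusted p = 0.935, limma). Eif2ak3, which encodes PERK of the endoplasmic reticulum, read 3.30, 2.79 and 3.47 CPM against 3.95 and 2.701 CPM, and the knockout libraries lay on either side of the control. Its log2 difference was 0.05 (−0.38 to 0.49, adjusted p = 0.870, limma). Eif2ak4, which encodes GCN2, the sensor of uncharged tRNA, read 1.76, 2.86 and 1.90 CPM against 2.17 and 1.85 CPM. Between 23 and 39 reads per library lay behind these values, so that the interval of its log2 difference of −0.09 ran from −0.60 to 0.41 (adjusted p = 0.802, limma). The 3 intervals do not exclude changes of their width, and the mRNA level says nothing of kinase activity.

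Beside these, 2 genes with eIF2 in their names act without the heterotrimer. Eif2a, an alternative initiation factor, read 44.1, 39.0 and 39.8 CPM in the control libraries and 46.6 and 49.2 CPM in the knockout libraries, above each control value, and did not pass (log2 difference 0.22, adjusted p = 0.0929, limma). Eif2d, which acts in ribosome recycling and reinitiation, overlapped between the groups with a log2 difference of −0.06 (adjusted p = 0.760, limma).

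Of the 5 genes with an eIF1 or eIF1A name, 4 rose, among them factors that find the start codon. Eif1, which guards the choice of the AUG, read 629 ± 19.98 CPM in the control and 964 and 1104 CPM in the knockout libraries (log2 difference 0.72 ± 0.07, adjusted p = 0.000186, limma). Eif1a, an autosomal gene for eIF1A, read 9.68 ± 1.65 CPM against 17.8 and 18.3 CPM (log2 difference 0.87 ± 0.14, adjusted p = 0.00272, limma). The X-linked copy Eif1ax read 44.7, 47.1 and 41.8 CPM against 53.4 and 54.3 CPM (log2 difference 0.27 ± 0.08, adjusted p = 0.03895, limma). Both copies were above their controls, and reads of the pair can be shared. Eif1ad, which carries an eIF1A domain, read 13.3, 10.9 and 12.3 CPM against 19.5 and 18.2 CPM (log2 difference 0.61 ± 0.12, adjusted p = 0.00523, limma). Eif1b, a paralog of Eif1, had a log2 difference of 0.16 that did not pass (adjusted p = 0.209, limma).

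eIF3, the largest initiation factor and the scaffold of the small subunit complex, had 13 of its 14 genes called higher and 0 lower. Their log2 differences ran from 0.27 to 1.35 with a median of 0.38 over the 14. In all 14 both knockout libraries exceeded the control range. Of all genes 25.4% did so, and 1523 of the 3974 that averaged 20 CPM or more. Eif3c, an octamer core subunit, stood above the others. It read 44.7 ± 4.25 CPM in the control and 107 and 122 CPM in the knockout libraries, 2.56 times the control level (log2 difference 1.35 ± 0.10, adjusted p = 4.75e-05, limma). Its 95% confidence interval, 1.12 to 1.57, lay above those of the other 13 genes, of which Eif3a reached 1.03. Eif3d, which can bind the cap of certain mRNAs, read 25.2, 26.8 and 26.2 CPM in the control libraries and 36.1 and 37.6 CPM in the knockout libraries (log2 difference 0.49 ± 0.08, adjusted p = 0.00293, limma).

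Eif3e read 62.5 ± 3.82 CPM in the control and 85.3 and 85.6 CPM in the knockout libraries (log2 difference 0.45 ± 0.08, adjusted p = 0.00320, limma). Eif3m read 115 ± 2.61 CPM against 144 and 153 CPM (log2 difference 0.36 ± 0.06, adjusted p = 0.00375, limma). Both belong to the octamer core with Eif3c, and their intervals lay below that of Eif3c. Eif3a, the largest subunit, differed between its knockout libraries, which read 119.8 and 181 CPM against 93.6 ± 8.86 CPM in the control. Its log2 difference of 0.68 ± 0.15 passed (adjusted p = 0.0121, limma), and without the higher library the call was lost.

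The loosely bound subunit eIF3j comes from Eif3j1 and Eif3j2, near-identical genes whose reads can be shared, and their log2 differences were 0.56 and 0.61. Eif3g reached 0.40, and Eif3i, Eif3h, Eif3f, Eif3k and Eif3l lay between 0.27 and 0.30. Eif3b was the exception that did not pass (log2 difference 0.27, adjusted p = 0.0627, limma), although its 2 knockout libraries, at 38.4 and 41.6 CPM, were above its control libraries of 32.7, 30.8 and 35.7 CPM. The eIF3 count depended on how the spread was estimated, with 7 called higher when the variance was moderated without its trend on the mean and 1 when the nearer knockout library stood alone.

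**Figure D2:**
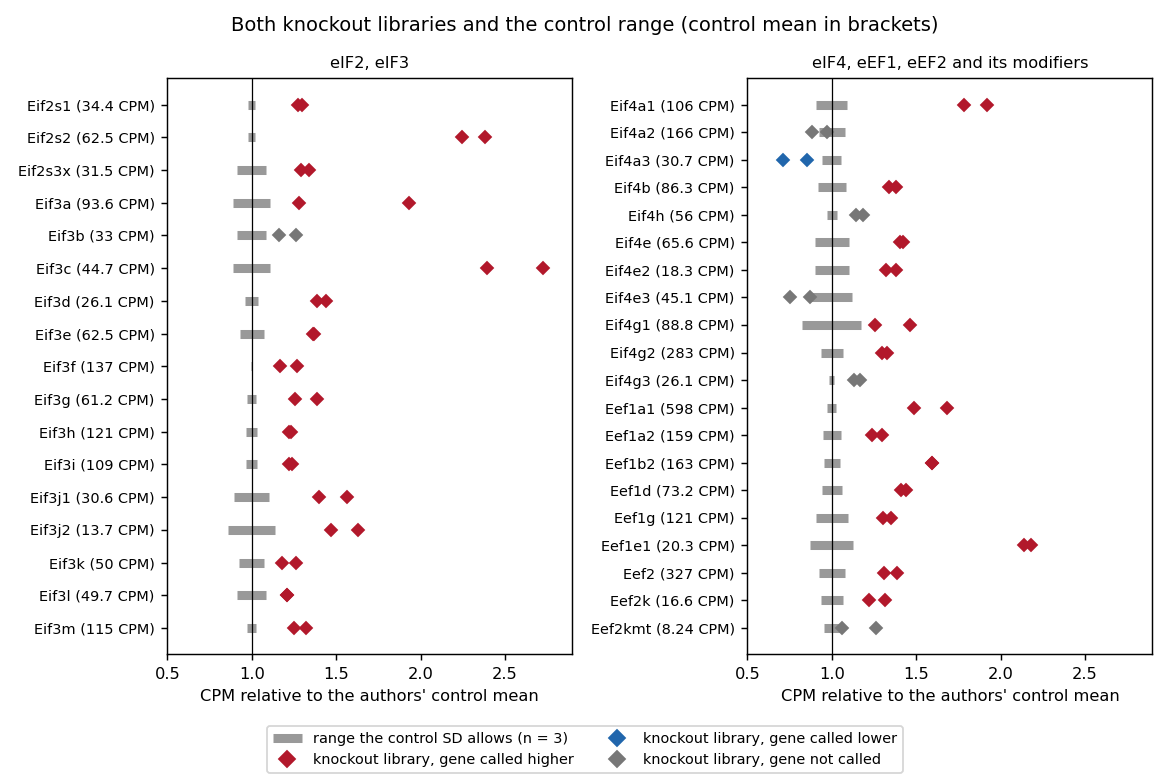
CPM of each knockout library (diamonds, n = 2) divided by the authors' control mean, on a linear axis, for the genes of eIF2, eIF3, eIF4, eEF1 and eEF2, with a grey bar for the range that the control SD allows 3 libraries to span. Eif3c, Eif2s2 and Eef1e1 lie farthest to the right, and Eif4a3 lies to the left of its bar.

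Among the 11 genes with an eIF4 name, 6 were called higher and 1 lower. Most of them act in recruiting the mRNA, and the 1 called lower, Eif4a3, does not. The genes with an eIF4A name got different calls. Eif4a1, with CACGTG in the stretch shown, read 106 ± 8.34 CPM in the control and 189 and 204 CPM in the knockout libraries (log2 difference 0.89 ± 0.08, adjusted p = 0.0001405, limma). Its paralog Eif4a2, with 166 ± 10.95 CPM against 147 and 161 CPM, had a log2 difference of −0.11 (95% confidence interval −0.29 to 0.07, adjusted p = 0.350, limma), and scaled to library totals its sign turned. The intervals of these paralogs lie apart, and the difference between them was not itself tested. Eif4a3, the helicase of the exon junction complex, was the 1 member called lower. It read 30.7 ± 1.51 CPM against 21.9 and 26.2 CPM (log2 difference −0.34 ± 0.10, adjusted p = 0.0398, limma). That call was lost under library totals, under totals without the mitochondrial genome, without the mean trend and with the nearer knockout library alone.

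Eif4e, the cap-binding protein, read 65.6 ± 5.65 CPM in the control and 92.1 and 93.1 CPM in the knockout libraries (log2 difference 0.50 ± 0.09, adjusted p = 0.00326, limma). Eif4b, a helper of the helicase, read 86.3 ± 6.28 CPM against 115 and 119 CPM (log2 difference 0.44 ± 0.08, adjusted p = 0.003905, limma). Eif4g2, which encodes DAP5, a scaffold that does not bind eIF4E, read 283 ± 16.2 CPM against 367 and 375 CPM (log2 difference 0.39 ± 0.07, adjusted p = 0.00285, limma). These 3 genes take part in cap binding, unwinding and scaffolding. The classical scaffold Eif4g1 had a log2 difference of 0.44 ± 0.12 (adjusted p = 0.03075, limma) and its paralog Eif4g3 one of 0.20 ± 0.08 (adjusted p = 0.116), with overlapping intervals. Of the other cap-binding paralogs, Eif4e2 was called higher (0.43) and Eif4e3 was not called, with a log2 difference of −0.29 (adjusted p = 0.0841, limma). Eif4h, a further helper of the helicase, came to 0.22 (adjusted p = 0.0538, limma). With the nearer knockout library alone, Eif4e, Eif4b, Eif4g2, Eif4g1 and Eif4e2 were not called. The call of Eif4g1 was also lost without the mean trend.

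Among 3 genes of proteins that bind eIF4E, 0 were called, and Eif4ebp1, which encodes the best known of them, was left out by the rule. Eif4ebp2, Eif4ebp3 and Eif4enif1 had log2 differences of −0.02, −0.02 and −0.15, and their 95% confidence intervals all included 0.

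Of the 5 genes of eIF5, eIF5A, eIF5B and eIF6, 3 rose. Eif5a, whose hypusine residue helps the ribosome form difficult peptide bonds, read 169 ± 24.35 CPM in the control and 308.8 and 309.9 CPM in the knockout libraries (log2 difference 0.87 ± 0.11, adjusted p = 0.000586, limma). Its paralog Eif5a2 was near the lower end of the table at 0.84 and 0.63 CPM and was not called (adjusted p = 0.577, limma). Eif5, which makes eIF2 hydrolyse its GTP, read 59.8 ± 9.36 CPM against 101 and 103 CPM (log2 difference 0.77 ± 0.12, adjusted p = 0.00190, limma). Eif6, which keeps the large subunit from joining early, read 12.4, 14.5 and 14.6 CPM against 17.4 and 20.5 CPM (log2 difference 0.44 ± 0.12, adjusted p = 0.0280, limma). Eif5b, which joins the subunits, differed more between its knockout libraries, at 57.3 and 80.4 CPM, than from the control at 62.6 ± 5.14 CPM, and was not called (adjusted p = 0.516, limma).

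All 6 genes with an eEF1 subunit name rose, of which 5 encode the complex that delivers aminoacyl-tRNA. Without the mean trend, and with the nearer knockout library alone, 4 of the 6 were called, Eef1a2 and Eef1g being lost in both. Eef1a1, the delivering GTPase, read 598 ± 14.1 CPM in the control and 889.6 and 1007 CPM in the knockout libraries (log2 difference 0.67 ± 0.07, adjusted p = 0.000208, limma). Eef1a2, the paralog of adult heart, muscle and nerve, read 159 ± 7.35 CPM against 197 and 207 CPM (log2 difference 0.34 ± 0.07, adjusted p = 0.00601, limma). The interval of Eef1a1 (0.51 to 0.82) lay above that of Eef1a2 (0.19 to 0.49), and the difference between the paralogs was not itself tested. Eef1b2, an exchange factor of eEF1A, read 163 ± 6.50 CPM against 259.4 and 260.0 CPM (log2 difference 0.67 ± 0.06, adjusted p = 0.000149, limma). Eef1d, another exchange subunit, read 73.2 ± 3.79 CPM against 103 and 105 CPM (log2 difference 0.51 ± 0.07, adjusted p = 0.00126, limma), and Eef1g had a log2 difference of 0.40 ± 0.08 (adjusted p = 0.00650).

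Eef1e1 carries an eEF1 name and encodes AIMP3, a scaffold of the multi-tRNA synthetase complex. It read 19.7, 22.8 and 18.5 CPM in the control libraries and 43.4 and 44.3 CPM in the knockout libraries, 2.16 times the control level (log2 difference 1.09 ± 0.11, adjusted p = 0.000186, limma). Every knockout library was far above every control library, and the call held without any 1 of the 5 libraries.

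Genes that modify elongation factors were mixed. Eef1akmt4, a methyltransferase of eEF1A, read 2.80 ± 0.30 CPM against 5.51 and 5.62 CPM (log2 difference 0.88 ± 0.16, adjusted p = 0.00366, limma), while Eef1akmt1 and Eef1akmt2 had log2 differences of 0.005 and −0.02. Eef1akmt4 shares exons with the read-through gene Eef1ece2, which was listed at 0.47 and 0.95 CPM and was not called, so that their reads may not be separable. Eef2, the translocase, read 327 ± 21.4 CPM in the control and 428 and 453 CPM in the knockout libraries (log2 difference 0.43 ± 0.07, adjusted p = 0.00253, limma). Eef2k, the kinase that inhibits eEF2, rose from 16.6 ± 0.93 CPM to 20.3 and 21.9 CPM (log2 difference 0.33 ± 0.10, adjusted p = 0.0385, limma). With the nearer knockout library alone neither Eef2 nor Eef2k was called, and without the mean trend Eef2k was lost. Eef2kmt, which methylates eEF2, was not called (log2 difference 0.21, adjusted p = 0.275, limma).

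**Figure D3:**
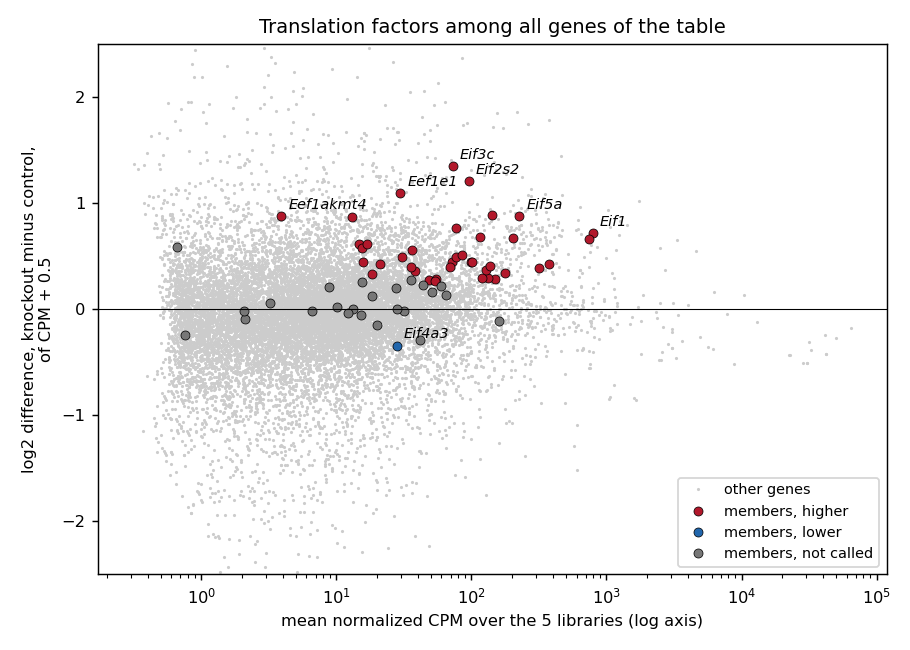
Log2 difference (knockout minus control, of CPM + 0.5) against the mean normalized CPM over the 5 libraries on a log axis, with the members coloured by call and all other genes in grey; 65 genes lie beyond the vertical axis at 2.5. Members above 100 CPM are nearly all red, and those below 10 CPM are mostly grey.

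Single-library values were worked back for 18 members, all below 60 CPM, of which 7 were called, and 6 in a fit of the single libraries, where Eif3l was lost. When each library was left out in turn from these, calls fell to 4 without the first or second control library, came to 8 with Eif3b added without the third, and fell to 2 and 1 without the first and second knockout library. Eif1ax, Eif3l and Eif6 lost their call without the first or second library of either group, Eif1ad and Eif2b3 without either knockout library, and Eif3d without the second. Eef1e1 was the gene that stayed called in each case. Of the 8487 genes so treated, 655 were called higher and 1036 lower with all 5 libraries, 205 and 421 without the first knockout library, and 207 and 386 without the second.

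**Figure D4:**
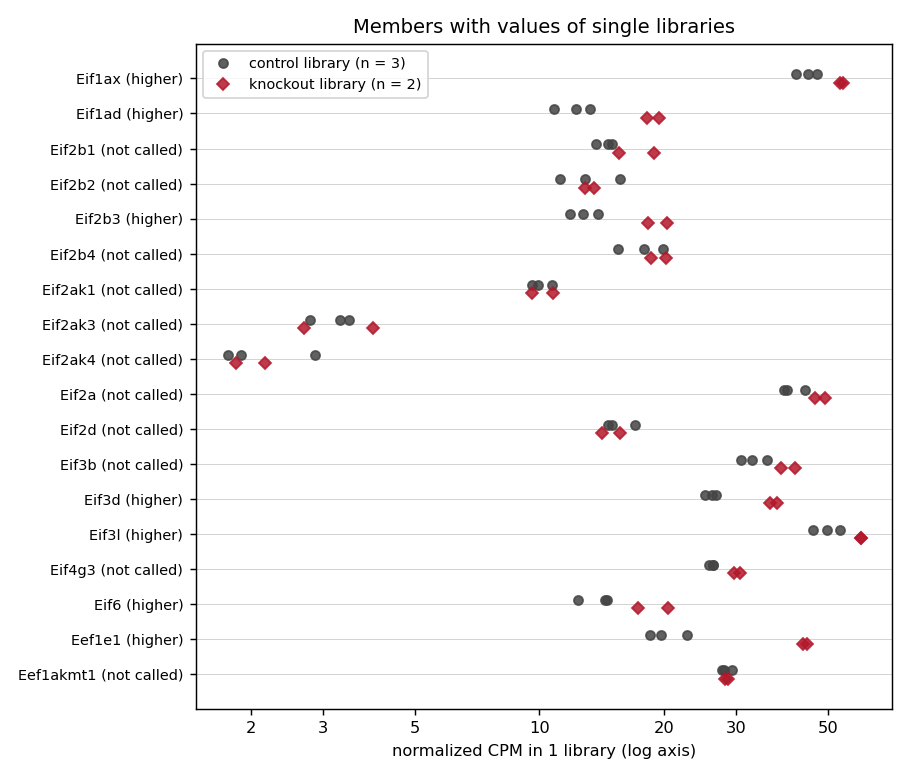
Normalized CPM in single libraries on a log axis for the 18 members whose whole reads could be worked back, with circles for the 3 control and diamonds for the 2 knockout libraries and the call in brackets. The groups of Eef1e1, Eif1ad, Eif2b3 and Eif3d lie apart, and those of Eif2ak1, Eif2ak3 and Eif2ak4 overlap.

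Other translation genes are given beside the factors, and 22 of 65 with values were called higher and 3 lower. Over all genes 13.3% were called higher and 12.9% lower. Among genes that averaged 20 CPM or more, the shares were 25.3% and 15.4%. The 4 mRNAs that are translated through upstream reading frames when eIF2 is phosphorylated rose by more than any other list here, among them Atf5 from 34.4 ± 4.32 CPM to 296 and 299.7 CPM (log2 difference 3.09 ± 0.10, adjusted p = 1.31e-06, limma) and Atf4 from 38.5 ± 3.39 CPM to 231 and 266 CPM (2.67 ± 0.10, adjusted p = 1.64e-06). Ddit3, which encodes CHOP, had a log2 difference of 1.93 ± 0.12. These transcription factors rose at the mRNA level while Eif2ak1, Eif2ak3 and Eif2ak4 showed no detectable difference. Among regulators of eIF2 phosphorylation 3 of 12 were higher and 0 lower. They were Ppp1r15a and Ppp1r15b, which direct a phosphatase to eIF2 (log2 differences 1.299 and 0.40), and Impact, an inhibitor of GCN2 activation (0.56).

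Release and recycling factors had 6 of 8 genes higher, and those with the smallest p were Denr and Mcts1, a pair that recycles the small subunit (0.46 and 0.54), and the release factor Gspt1 (0.48). Mcts2, a retrocopy of Mcts1 whose reads may be shared with it, was the 1 of the 8 called lower (−0.58) and is named because of that. Of 16 cap, poly(A) and helicase genes, 2 were higher, the poly(A)-binding Pabpc4 (0.79) and Larp1 (0.53), a repressor of mRNAs that encode ribosomal proteins. That share is near that of all genes. Enzymes that make hypusine on eIF5A or diphthamide on eEF2 had 4 of 9 genes higher, namely Dph5 (1.14), Dph6 (0.90) and Dph3 (0.54) of the diphthamide pathway and Dhps (0.42), which acts on eIF5A. Other diphthamide genes were not called, among them Dph7, with a log2 difference of −0.58 and both knockout libraries below the control (adjusted p = 0.0823, limma). Elongation partners had 3 of 6 higher, namely Vars1, the valyl-tRNA synthetase that binds eEF1 (1.07), Serbp1 (0.44) and Tpt1 (0.37). Factors of mitochondrial translation had 1 of 11 higher (Mrrf, 0.35) and 2 lower (Tsfm, −0.25, and Mtrfr, −0.46), shares near those of all genes.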

How the data were processed

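Mouse heart RNA (3 control and 2 knockout samples) was sequenced by the authors as oligo-dT primed 3′ tag libraries with molecular identifiers. The submitters' processing notes name GRCm39, STAR 2.7.11, SAMtools 1.22.1, featureCounts, Subread 2.1.1 and edgeR 4.0.16, but give them no roles. The authors' deposited table gives, for each group, a mean signal in CPM, meaning read counts divided by a normalized library size, and the deposited SD of the same values. Its columns of the authors' own comparison (fold change, p-value, adjusted p and F score) were not used. Group columns carry no single-sample value, and 0 other sample columns were present.

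Means and SDs were carried to log2(CPM + 0.5) by the delta method, pooled over both groups and moderated with a mean trend in limma 3.58.1 (R 4.3.3). Tests were two-sided, using Benjamini-Hochberg adjustment over all 15116 genes, with calls at an adjusted p below 0.05. The fit was tested on simulated data. Intervals are 95% confidence intervals of the moderated fit, with a median of 8.57 degrees of freedom. The SD after an authors' mean is the deposited one (n = 3 control, n = 2 knockout), and knockout libraries are the mean plus or minus the SD divided by the square root of the number of libraries.

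Because means and SDs are deposited to 6 digits or so, whole reads per library could be worked back for 8487 of 13520 genes below 60 CPM (62.8%) with a relative tolerance of 3e-06. The effective sizes implied for the control libraries were 13.6, 13.6 and 12.1 M reads, and those of the knockout libraries 15.2 and 14.1 M. These libraries are numbered by size and were not matched to named samples. Other genes appear to hold fractions of reads, and depth then enters only through the SD.

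Members and gene lists were chosen with earlier results of these data known. The rule for named genes gave every called member, with full values for up to 4 per complex with the smallest p. Full values were also planned for the paralogs set side by side and for each eIF2, eIF2B and kinase gene. Of those paralogs, Eif4g1, Eif4g3 and Eif5a2 were given in short form only. Eif3a and Eif4a3 were given in full outside the rule, after their values were seen. From every other translation list up to 3 called genes with the smallest p were named, and Dhps, Dph7, Mcts2, Myc and the called cell markers were added after their values were seen. Paralogs that share reads are uncertain, and processed pseudogenes are listed separately, such as Eif4a-ps4 (11.5 and 22.3 CPM) and Eef1a1-ps1 (3.79 and 6.07 CPM). Promoter windows are those of RefSeq on GRCm38.p6, a build other than that of the counts, matched by symbol. Alternatives were 2 pseudocounts, a minimum mean of 5 CPM, 2 scalings, 2 moderations, the nearer knockout library, single-library fits and leaving out each library.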

Additional observations from a re-analysis of the deposited data

How the results depend on the processing

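Pseudocounts of 0.1 and 1 CPM, robust moderation and a minimum mean of 5 CPM moved the call of no member except Eif4h, which passed with the minimum mean, a filter that kept 58 of the 64 and left out Eef1akmt4. Library totals added 6 members (Eif1b, Eif2a, Eif2b1, Eif3b, Eif4g3 and Eif4h), lost Eif4a3, and raised the members' median log2 difference from 0.35 to 0.48. They turned the sign of 8 members, none of them called. Under totals the eIF2B subunits called higher were 2, the members and eIF4 factors called lower 0, the other translation genes called lower 1, and the genes of sex and other cell types 1 higher and 2 lower, against 0 and 6. Totals without the mitochondrial genome also gave 0 members and eIF4 factors lower and 1 sex or cell type gene higher, as did robust moderation for the last. Without the mean trend 27 of the 40 called members kept their call, with 0 members and eIF4 factors lower, 7 eIF3 subunits and 1 eEF2 gene higher, and 2 sex or cell type genes lower. With the nearer knockout library alone, 10 members were higher and 0 lower, among them 1 eIF2, 0 eIF2B, 1 eIF3, 1 eIF4 and 0 eEF2 genes, with 0 eIF4 factors lower, while other translation genes were 10 higher and 0 lower, and sex and cell type genes 2 lower. Among the 18 members with single-library values, 7 were called, 6 in the single-library fit, and 1 to 8 without 1 library. The cause of these changes was not tested, beyond the fewer libraries of the leave-one-out fits, where a lone knockout library is assumed to vary like the controls. Leaving out each library was possible only for genes with whole reads, so complexes have the nearer-library bound alone. No paired analysis was possible because the group columns carry no replicate number. With 2 knockout libraries, small differences of low genes such as Eif2ak4 were not detectable.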
